A study of Mus musculus with 16 samples.

Results

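The D-type cyclins and the inhibitors of cyclin-dependent kinases (CDKs) set whether a cell leaves the G1 phase of the cell cycle. The 10 genes described here, of 25719 in the deposited tables, are the D cyclins Ccnd1, Ccnd2 and Ccnd3, the Cip/Kip inhibitors Cdkn1a, Cdkn1b and Cdkn1c, and the Ink4 inhibitors Cdkn2a, Cdkn2b, Cdkn2c and Cdkn2d. They were taken by symbol and not by a cutoff on their values, and all 10 were found. The group was chosen with earlier results of these data known. RNA was sequenced from mouse tail tendon fascicles, the collagen-rich strands of the tail, in 16 libraries. Of these, 8 came from mice with the genotype ScxCre;Vhlf/f (here the knockout), in which Cre recombinase driven by the tendon gene Scx deletes floxed Vhl in cells of the Scx lineage, and 8 from wild type mice. The labels give no age, treatment or sex, do not say whether the wild type mice carried Cre or floxed alleles, and do not say whether each library came from 1 animal, so p-values measure the spread between these libraries. The cell type is labelled as all tissue cells, so in these bulk libraries fewer cells of a type and less RNA per cell cannot be told apart.

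D cyclins bind CDK4 and CDK6 when growth signals arrive, and the complexes phosphorylate the retinoblastoma protein, which then releases E2F factors that switch on genes of S phase. Ink4 proteins bind CDK4 and CDK6 and keep the D cyclins away, whereas Cip/Kip proteins bind assembled cyclin-CDK complexes, above all those of CDK2. VHL is the part of a ubiquitin ligase that marks hydroxylated HIF proteins for degradation, and in VHL-deficient kidney carcinoma cells CCND1 is a known target of HIF2α. Tendon cells divide rarely in the adult.

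Total counts per library ran from 10488355 to 18753254. Vhl was measured at 9.35 ± 1.25 CPM in knockout libraries and 20.5 ± 3.69 CPM in wild type libraries (mean ± SD, n = 8 each), where CPM is a count divided by its library's size, with sizes adjusted by the trimmed mean of M-values (TMM), and no knockout library reached a wild type library. The 12 tenocyte markers were all expressed, with a summed level of 83838 to 185550 CPM in the knockout and 137796 to 387802 CPM in the wild type. Some libraries stood apart. Knockout libraries 6, 7 and 8 and wild type library 5 held between 10412 and 24814 CPM of 14 skeletal muscle markers, and the other 12 libraries between 101 and 4017 CPM. Knockout libraries 5, 6 and 8 and wild type library 8 held between 479 and 1251 CPM of Scx, and the other 12 at most 140 CPM. Y-linked genes averaged 5.61 to 5.72 log2 CPM in knockout libraries 1 and 6 and wild type libraries 7 and 8. The other libraries lay at -2.6 or lower, so each genotype held libraries with and without Y-linked expression. Endothelial markers, 15 in number, summed to between 82.7 and 663 CPM in the knockout and between 52.3 and 72.7 CPM in the wild type, and 9 of the 11 tested were higher in the knockout. None of the 15 was at 0 in all libraries. Erythroid markers, 7 in number, summed to between 77.8 and 563 CPM against between 15.1 and 50.8 CPM, and all 5 tested were higher. Of 9 tested mural markers 6 were higher and 1 lower, and of the 12 tenocyte markers 7 were lower and 2 higher. Over all tested genes 25.6% were higher and 22.7% lower at an adjusted p under 0.05, the threshold of these counts.

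The 3 inhibitor genes Cdkn1a, Cdkn2b and Cdkn1b were higher in the knockout and the inhibitor genes Cdkn2c and Cdkn1c were lower, while none of the 3 D cyclins passed the threshold. Promoter windows of the 3 higher genes follow, to show which letters lie at their starts. They are from RefSeq on GRCm38.p6, which offered windows for 7 of the 10 genes. The submitters' processing notes name GRCm39, so these positions are not those of the counted gene models. Each sequence is the 250 bases before an annotated start, read 5′ to 3′ on the strand of the gene. Capitals mark the hypoxia response core GCGTG (or its reverse complement) or, in the first sequence, a match to the p53 site of 20 bases with at most 1 departure from the consensus.
Cdkn1a, first start, chr17:29090729-29090978, plus strand: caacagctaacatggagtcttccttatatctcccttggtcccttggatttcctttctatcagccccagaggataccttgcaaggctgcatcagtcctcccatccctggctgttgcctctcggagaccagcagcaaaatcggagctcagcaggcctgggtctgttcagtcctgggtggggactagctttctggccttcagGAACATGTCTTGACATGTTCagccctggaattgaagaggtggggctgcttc
Cdkn1a, second start, chr17:29093519-29093768, plus strand: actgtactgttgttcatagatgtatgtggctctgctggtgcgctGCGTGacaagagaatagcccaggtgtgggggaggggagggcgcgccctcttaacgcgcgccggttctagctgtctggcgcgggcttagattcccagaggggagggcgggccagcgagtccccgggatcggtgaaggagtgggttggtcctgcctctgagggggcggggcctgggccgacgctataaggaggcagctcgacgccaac
Cdkn2b, chr4:89311033-89311282, minus strand: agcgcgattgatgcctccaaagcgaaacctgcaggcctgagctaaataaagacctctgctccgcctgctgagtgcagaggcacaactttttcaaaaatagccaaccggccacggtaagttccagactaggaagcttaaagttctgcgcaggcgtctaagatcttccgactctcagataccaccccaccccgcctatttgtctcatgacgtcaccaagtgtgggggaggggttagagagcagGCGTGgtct
Cdkn1b, chr6:134920151-134920400, plus strand: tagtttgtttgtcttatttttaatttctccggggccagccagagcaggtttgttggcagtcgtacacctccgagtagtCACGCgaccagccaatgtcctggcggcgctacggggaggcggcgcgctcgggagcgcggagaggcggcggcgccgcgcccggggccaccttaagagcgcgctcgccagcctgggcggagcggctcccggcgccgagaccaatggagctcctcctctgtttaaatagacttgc

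The searched motifs were ACGTG and GCGTG, the cores of the hypoxia response element, and TTTCGCGC and TTTGGCGC, forms of the E2F site, each on both strands of the full 300-base windows, which also hold 50 bases after the start. ACGTG overlaps the E-box CACGTG. A hypoxia response core was present in 43.8% of all 32851 promoter windows, so its presence in 1 window is common. Cdkn1a held GCGTG before its second start and no core before its first. Cdkn2b, Cdkn1b, Cdkn2d and both windows of Cdkn2c held at least 1 core, so genes that were higher, lower and not past the threshold all had one. No window of the 7 genes held either E2F form, which 0.813% of all windows did. The p53 match before the first Cdkn1a start began at position -51 from that start. Such a match occurred in 0.088% of all windows, and the allowance of 1 departure was set after the sequence was seen. A match in letters shows no binding.

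The D cyclins were abundant in both genotypes. Ccnd1 (ENSMUSG00000070348, chromosome 7), the D cyclin most often tied to growth factor signals, had a lowest, median and highest level of 179, 214 and 353 CPM in the wild type and 166, 195 and 308 CPM in the knockout. Wild type library 3 and knockout library 5 were the highest of their groups, and the groups overlapped over most of their range. The log2 fold change was -0.13 (SE 0.145; edgeR, adjusted p = 0.474), with a 95% interval from -0.44 to 0.18. It lay at -0.03 without wild type library 3 and at 0.01 without the 4 muscle-rich libraries, so its sign was not fixed.

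Ccnd2 (ENSMUSG00000000184, chromosome 6), a D cyclin induced in many tissues by growth signals, lay at 222, 279 and 357 CPM (lowest, median and highest) in the wild type and at 212, 294 and 382 CPM in the knockout. Its log2 fold change was 0.08 (95% interval -0.17 to 0.33, adjusted p = 0.597, edgeR). Ccnd3 (ENSMUSG00000034165, chromosome 17), which is prominent in lymphocytes and differentiating muscle, lay at 76.8, 92.4 and 104 CPM in the wild type and at 87.8, 92.1 and 118 CPM in the knockout. Its log2 fold change was 0.05 (95% interval -0.10 to 0.21, adjusted p = 0.579, edgeR). For both genes the libraries of the 2 genotypes overlapped almost completely. Knockout library 4 was lowest for Ccnd2 and second highest for Ccnd3. Under a scaling by total counts without TMM, where 8270 genes were higher and 1415 lower in place of 3792 and 3359, the median log2 fold change over all genes shifted from 0.02 to 0.32, and Ccnd2 (0.39) and Ccnd3 (0.35) passed the threshold there. Relative to that median they stood at 0.07 and 0.03. Exons of Ccnd1 overlap those of LTO1 on the other strand and exons of Ccnd3 those of Bysl, and the use of strand in counting is not given in the sources used here, so their counts are uncertain. LTO1 and Bysl did not pass the threshold either (log2 fold changes -0.14 and 0.11, adjusted p = 0.388 and 0.370, edgeR).

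The mix of D cyclins was alike in both genotypes. Ccnd2 took a median of 48.1% of the D cyclin counts in wild type libraries and 50.5% in knockout libraries, Ccnd1 took 34.9% and 33.5%, and Ccnd3 made up the rest. Ranges overlapped for all 3. The highest Ccnd1 share was that of wild type library 3.

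**Figure D1:**
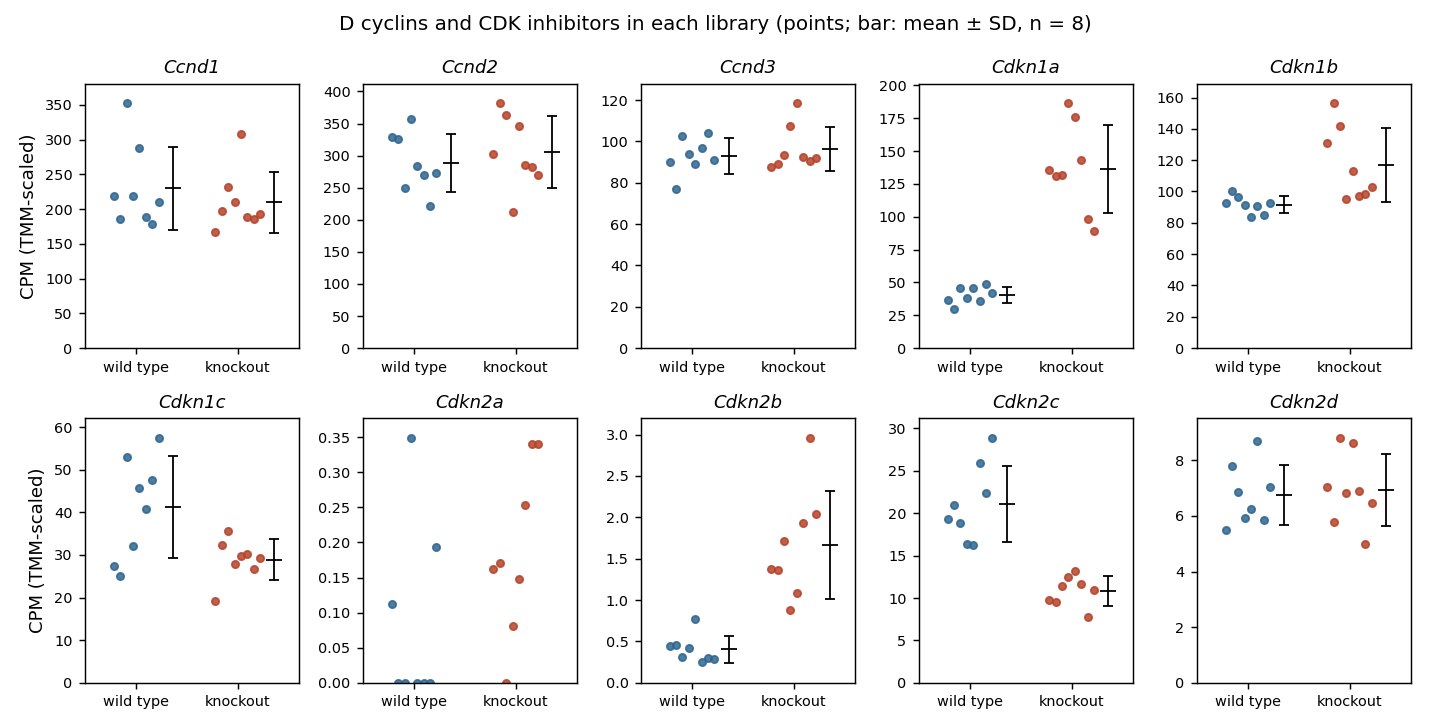
Level of each gene in CPM (TMM-scaled, linear axis from 0) in the 8 wild type (blue) and 8 knockout (red) libraries, with black bars for mean ± SD, n = 8 (none for Cdkn2a, which had at most 7 counts in any library). The groups separate for Cdkn1a, Cdkn2b and Cdkn2c and overlap for the others.

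Of the 9 genes that passed the expression filter, 5 passed the threshold of an adjusted p under 0.05, 3 higher and 2 lower. The share over all 14803 tested genes was 48.3%, with 25.6% higher and 22.7% lower, so a share of 5 in 9 is near that background. The median log2 fold change was 0.05 over the 9 genes and 0.02 over all tested genes. Groups did not overlap for 3 of the 9, against 19.4% of all tested genes, with 2 higher (10.8% of all) and 1 lower (8.61% of all). Among them, Cdkn2b passed the filter only through the knockout libraries, so its separation is not independent of the filter. Cdkn1a and Cdkn2b were at least 2-fold higher, as were 8.3% of all tested genes. Each inhibitor family held a gene called higher and a gene called lower. With shares this near the background, no pattern of the families is read from it.

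Cdkn1a (ENSMUSG00000023067, chromosome 17) encodes p21, the inhibitor best known as a target of p53. Its lowest, median and highest levels were 29.7, 40.0 and 48.8 CPM in the wild type and 89.4, 134 and 186 CPM in the knockout. Every knockout library was above every wild type library, and the lowest knockout libraries were 7 and 8, at 98.6 and 89.4 CPM. Means were 40.3 ± 6.36 and 136 ± 33.4 CPM (SD, n = 8), a 3.38-fold rise (log2 fold change 1.76, SE 0.143; edgeR, adjusted p = 8.59e-09). Over 29 other settings and subsets the log2 fold change lay between 1.68 and 2.05 and passed the threshold in all 29. Exons of Cdkn1a overlap 273 bases of the antisense gene AC167363.2, which was also higher in the knockout (10.7 to 28.1 CPM against 3.37 to 6.66 CPM, log2 fold change 1.94, adjusted p = 1.97e-07, edgeR). Reads in the shared stretch cannot be assigned to either gene without strand, and AC167363.2 held 2374 counts in the knockout libraries where Cdkn1a held 16547.

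Cdkn1b (ENSMUSG00000003031, chromosome 6) encodes p27, an inhibitor that accumulates in resting cells and is removed by the ubiquitin ligase subunit Skp2. It lay at 84.0, 91.9 and 101 CPM in the wild type and at 95.2, 108 and 156 CPM in the knockout. Knockout libraries 1, 2 and 3 held 131, 156 and 142 CPM, and the other 5 lay between 95.2 and 113 CPM, partly within the wild type range. The rise was 1.28-fold (log2 fold change 0.35, SE 0.0972, edgeR, adjusted p = 0.00562). It did not pass a test against a 1.2-fold change (adjusted p = 0.191), and with the endothelial score as a covariate its log2 fold change was 0.78, and with total counts 0.65.

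Cdkn1c (ENSMUSG00000037664, chromosome 7) encodes p57, an imprinted inhibitor linked to developmental exit from the cell cycle. It lay at 25.0, 43.3 and 57.5 CPM in the wild type and at 19.1, 29.6 and 35.5 CPM in the knockout, where library 1 was lowest. Wild type libraries 1 and 2, at 27.5 and 25.0 CPM, and wild type library 4, at 32.2 CPM, lay among the knockout libraries. The log2 fold change was -0.51 (SE 0.164, edgeR, adjusted p = 0.0152), from 41.2 ± 12.0 to 28.9 ± 4.78 CPM (SD, n = 8). The call was lost with total counts (-0.23, adjusted p = 0.289), with limma-voom (-0.37, adjusted p = 0.0847), with the endothelial score as a covariate (-0.44, adjusted p = 0.274), without the 4 libraries of high Scx (-0.46, adjusted p = 0.0856), without the 4 muscle-rich libraries (-0.48, adjusted p = 0.0905) and against a 1.2-fold change (adjusted p = 0.0784). With total counts the median of all genes was 0.32, and relative to it Cdkn1c stood at -0.55.

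Within the Cip/Kip family the share of Cdkn1a was larger in the knockout and that of Cdkn1c smaller. Cdkn1a took between 19.1% and 26.9% of the family's counts in wild type libraries and between 40.4% and 60.2% in knockout libraries, without overlap. Cdkn1c took between 16.1% and 30.0% in the wild type and between 6.68% and 13.2% in the knockout, also without overlap. Cdkn1b took a median of 51.8% and 44.9%, with overlapping ranges. These shares compare counts within a library and do not depend on the scaling between libraries. They depend on each other, since a larger Cdkn1a share lowers those of Cdkn1b and Cdkn1c. In CPM the groups overlapped for Cdkn1c, so its separate shares do not by themselves show a fall of Cdkn1c.

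**Figure D2:**
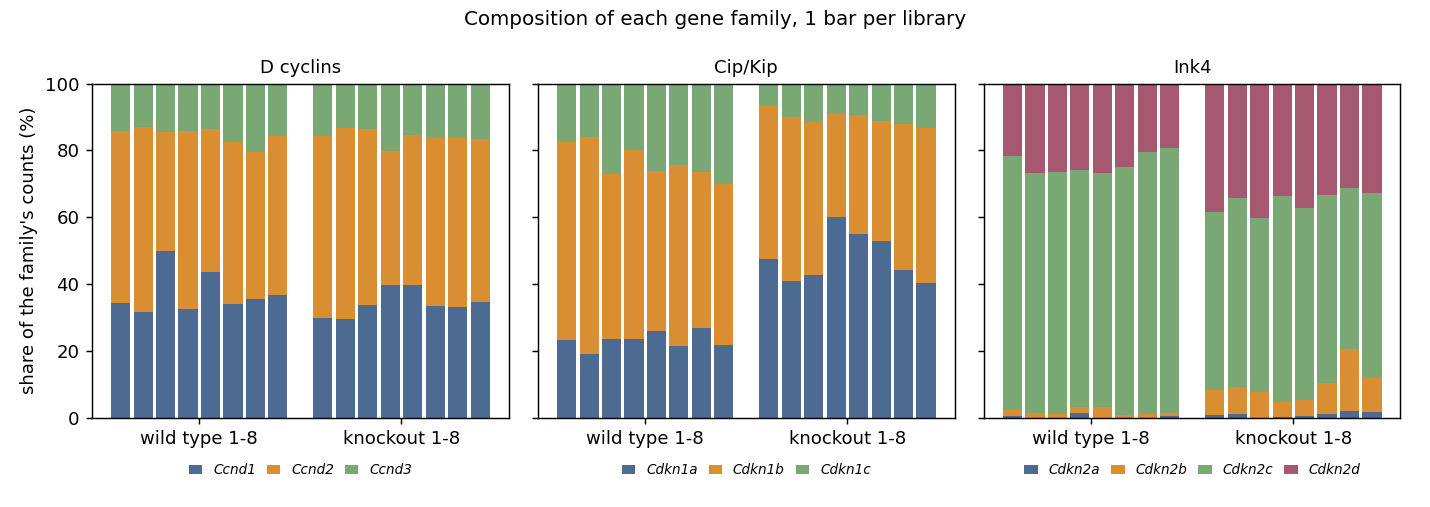
Share of each gene in the counts of its family (percent, stacked to 100), 1 bar per library, wild type libraries 1 to 8 at the left of each panel and knockout libraries 1 to 8 at the right. Cdkn1a rises from 19.1% to 26.9% of the Cip/Kip counts in the wild type to 40.4% to 60.2% in the knockout, and the D cyclin panel shows no such step.

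The Ink4 genes were low, with Cdkn2b called higher and Cdkn2c called lower. Cdkn2b (ENSMUSG00000073802, chromosome 4) encodes p15, an inhibitor induced by TGF-beta in many cells. It lay at 0.253, 0.365 and 0.768 CPM in the wild type and at 0.884, 1.54 and 2.96 CPM in the knockout, that is 37 counts over the 8 wild type libraries and 209 over the 8 knockout libraries. All knockout libraries were above all wild type libraries, and knockout libraries 6, 7 and 8 were the highest, at 1.93, 2.96 and 2.04 CPM. The log2 fold change was 2.04 (SE 0.283, edgeR, adjusted p = 6.40e-06). The filter's cutoff was 0.885 CPM, taken on total counts without TMM and so not on the scale of the levels given here. No wild type library reached it, so the gene was tested only because it was high in the knockout. A count of 3, taken as the floor of detection, corresponds to between 0.145 and 0.336 CPM depending on the library.

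Cdkn2a (ENSMUSG00000044303, chromosome 4), the neighbour of Cdkn2b, encodes both p16 and the p53 activator p19ARF from different first exons, which gene counts do not separate. It did not pass the filter. It had between 0 and 7 counts per knockout library (24 in all) and between 0 and 5 per wild type library (8 in all), with 0 in 5 of the 8 wild type libraries. A difference was not detectable at this depth. With no filter the log2 fold change was 1.09 (SE 0.678, adjusted p = 0.219, edgeR).

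Cdkn2c (ENSMUSG00000028551, chromosome 4) encodes p18, an Ink4 protein expressed in many differentiated tissues, muscle among them. It lay at 16.2, 20.2 and 28.9 CPM in the wild type and at 7.71, 11.2 and 13.2 CPM in the knockout, without overlap. The wild type mean was 21.1 ± 4.47 CPM and the knockout mean 10.8 ± 1.77 CPM (log2 fold change -0.96, SE 0.128, edgeR, adjusted p = 3.85e-06), and this passed the threshold in all 29 other settings and subsets, at -1.01 to -0.66. Cdkn2d (ENSMUSG00000096472, chromosome 9) encodes p19 of the Ink4 family, whose level follows the cell cycle. It lay at 5.49, 6.55 and 8.69 CPM in the wild type and at 4.99, 6.86 and 8.80 CPM in the knockout, with a log2 fold change of 0.04 (95% interval -0.24 to 0.31, adjusted p = 0.837, edgeR). Scaled by total counts, it passed at 0.34, which is 0.02 above the median of all genes on that scale. Within the Ink4 family Cdkn2c took between 69.8% and 79.3% of the counts in wild type libraries and between 48.2% and 61.5% in knockout libraries, and Cdkn2b between 0.726% and 3.31% and between 4.37% and 18.5%, both without overlap. The Cdkn2d share, between 19.4% and 26.9% and between 31.2% and 40.1%, did not overlap either, though Cdkn2d did not pass on the TMM scale. Shares within a family depend on each other, so a separate share alone shows no change of that gene.

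**Figure D3:**
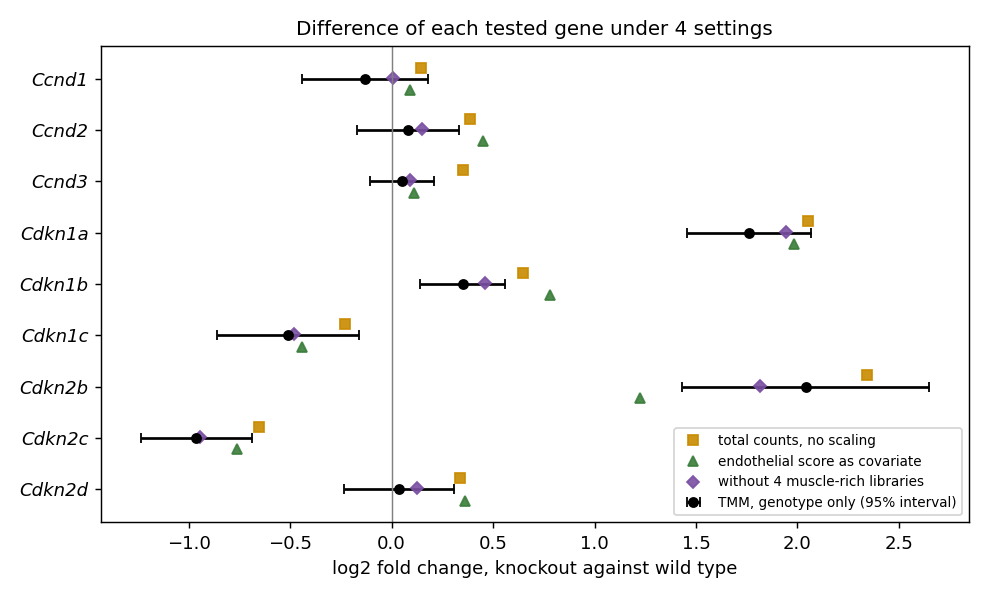
Log2 fold change of the 9 tested genes, knockout against wild type: black circles with 95% intervals for the TMM scale, squares for total counts, triangles with the endothelial marker score as a covariate, diamonds without the 4 muscle-rich libraries. Cdkn1a, Cdkn1b and Cdkn2b stay above 0 and Cdkn2c and Cdkn1c below it in all 4, and the D cyclins lie within 0.5 of it.

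Levels of different genes were compared per kilobase of exon, with lengths from GENCODE M21, an annotation of GRCm38. In the wild type the mean order was Ccnd1 at 48.9 ± 12.7 CPM per kilobase, Ccnd2 at 30.7 ± 4.81, Cdkn1c at 20.2 ± 5.86, Cdkn1b at 20.1 ± 1.21, Cdkn1a at 11.4 ± 1.79 and Ccnd3 at 10.6 ± 0.983 (SD, n = 8). Cdkn2c at 7.86, Cdkn2d at 4.28, Cdkn2b at 0.292 and Cdkn2a at 0.0697 CPM per kilobase followed. Cdkn1c and Cdkn1b, and likewise Cdkn1a and Ccnd3, differed by less than their spread. In the knockout Cdkn1a stood at 38.4 ± 9.39 CPM per kilobase, the second highest mean after Ccnd1 at 44.6 ± 9.28, and the ranges of these 2 genes overlapped. Cdkn2d, at 4.40 ± 0.818, and Cdkn2c, at 4.03 ± 0.659 CPM per kilobase, differed in the knockout by less than their spread.

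Among knockout libraries Cdkn1a and Cdkn2b were not highest in the same libraries. Libraries 6, 7 and 8, which held the most Cdkn2b, also held the most endothelial markers (428, 663 and 465 CPM in sum) and muscle markers, while libraries 7 and 8 held the least Cdkn1a. Libraries 4 and 5 held the most Cdkn1a (186 and 176 CPM) and the least Cdkn2b (0.884 and 1.09 CPM). In knockout libraries 2, 3 and 5, whose endothelial sums of 82.7, 101 and 111 CPM were the nearest to the wild type, Cdkn1a was at 131, 132 and 176 CPM and Cdkn2b at 1.36, 1.71 and 1.09 CPM, above every wild type library. For Cdkn2b this is not independent of the filter, which it passed only through the knockout libraries. Without the 4 muscle-rich libraries the log2 fold changes were 1.95 for Cdkn1a, 1.81 for Cdkn2b and -0.94 for Cdkn2c, and all 3 passed the threshold. With the endothelial score as a covariate Cdkn2b moved to 1.23 (adjusted p = 0.0233, edgeR). That score separates the genotypes by itself, so the covariate and the genotype share much of their variation. What part other cell types have in these results was not tested.

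**Figure D4:**
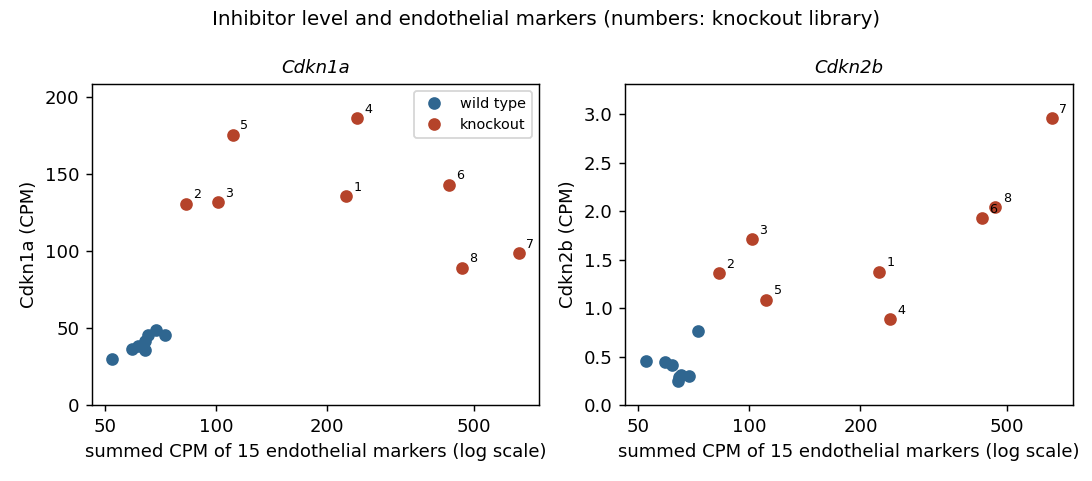
Level of Cdkn1a (left) and Cdkn2b (right) in CPM against the summed CPM of 15 endothelial markers (log axis), 1 point per library, wild type in blue and knockout in red with the library number. Knockout libraries 2, 3 and 5, at endothelial sums of 82.7 to 111 CPM, lie above all wild type libraries in both panels. Cdkn2b passed the filter only through the knockout libraries, so its separation is not independent of the filter.

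The tested genes whose profiles over the 16 libraries lay closest to Cdkn1a were Dock5, Mybl1 and Me2, with a root mean square difference of 0.21, 0.22 and 0.23 in centred log2 CPM among 13416 genes compared. Those closest to Cdkn2b were Camk2b, Adamts4 and Cacng7, at 0.31, 0.32 and 0.34. All 6 were higher in the knockout, by 1.40 to 1.98 on the log2 scale. Likeness here includes the step between genotypes, and no meaning is attached to it.

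The kinases and cyclins that act with these genes were higher in many cases. Of 15 listed kinases, later cyclins and CDC25 phosphatases, 14 were tested, 9 were higher and 1 was lower, with a median log2 fold change of 0.43. Over all tested genes 25.6% were higher and 22.7% lower, and the counts of this and the next lists stand against these shares. Levels in CPM in this paragraph and those on the next lists are group means. Among the partners of the D cyclins, Cdk6 rose from 34.4 to 66.1 CPM (log2 fold change 0.94, adjusted p = 2.03e-08, edgeR) and Cdk4 from 65.7 to 73.6 CPM (0.16, adjusted p = 0.0265), a call that was lost against a 1.2-fold change, in 4 of the 16 fits with 1 library left out and without the 4 libraries of high Scx (adjusted p = 0.142). Cdk2, the kinase of S phase entry, rose by 0.55 (adjusted p = 2.17e-06, edgeR), and its partner Ccne2 by 1.39, from 11.4 to 30.0 CPM. Ccne1 did not pass (0.31, adjusted p = 0.186), except with total counts (0.62, adjusted p = 0.00792). The mitotic genes Ccnb1 (2.61), Cdk1 (2.22) and Ccnb2 (2.01) had the largest increases. Their group means were 3.84 to 4.64 CPM in the knockout and at most 0.986 CPM in the wild type. These 3 and Ccne1 had fewer than 8 wild type libraries at the filter's cutoff. Ccnh, a subunit of the CDK-activating kinase, was the 1 lower gene (-0.21, adjusted p = 0.0190, edgeR). Its call was lost with total counts (0.094), with the muscle score (adjusted p = 0.0565), with the endothelial score (adjusted p = 0.502), without the 4 muscle-rich libraries (adjusted p = 0.0705) and against a 1.2-fold change (adjusted p = 0.886).

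Of the 13 pocket proteins and E2F factors, 8 were higher (25.6% of all tested genes were) and 1 was lower, with a median of 0.37. With the endothelial score 4 were higher, and against a 1.2-fold change 5. Rb1, the retinoblastoma gene, rose by 0.37 (adjusted p = 1.92e-04, edgeR), whereas its relative Rbl2, the pocket protein of resting cells, fell by 0.38 (adjusted p = 4.48e-05). E2f1, an activator, rose by 1.63, from 15.0 to 46.5 CPM (adjusted p = 4.01e-09). The repressive factors E2f8 (2.65) and E2f7 (2.03) rose from 0.296 and 0.816 CPM and were tested through the knockout libraries. Rbl2 lost its call with total counts (-0.08), where the median of all genes was 0.32. Rb1 lost its call with the endothelial score (0.29, adjusted p = 0.0707) and against a 1.2-fold change (adjusted p = 0.0739).

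Of 15 genes of S phase and proliferation that E2F controls, all were tested, 13 were higher, against 25.6% of all tested genes, and none was lower, with a median of 0.76. Of these 13, Cdc6 had only 3 wild type libraries at the filter's cutoff, so it was tested through the knockout libraries. The largest increases were those of Top2a (2.31), Mki67, the gene of the proliferation antigen Ki-67 (2.14, from 13.2 to 58.3 CPM), and Mcm5, a subunit of the replicative helicase (1.54). Groups did not overlap for 7 of the 15, all higher, against 10.8% of all tested genes. Tyms, the thymidylate synthase gene, was at -0.09 and did not pass. Lmnb1, a lamin whose loss is a known mark of senescent cells, rose by 0.78, from 3.72 to 6.41 CPM (adjusted p = 5.82e-04, edgeR), and lost its call with the endothelial score as a covariate (0.48, adjusted p = 0.215).

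Of 18 listed genes of p53 and its targets, 9 were higher and 3 were lower, with a median of 0.25, against 25.6% and 22.7% of all tested genes. With total counts, and likewise with the endothelial score, 1 was lower. Trp53 rose by 0.43 (adjusted p = 6.95e-04, edgeR) and Mdm2, the ubiquitin ligase that restrains p53 and is itself its target, by 0.64 (adjusted p = 6.11e-09). The largest increases were those of Pmaip1 (2.44), Eda2r (1.22) and the stress gene Gadd45a (1.18). No wild type library reached the filter's cutoff for Pmaip1, so it was tested through the knockout libraries, and with the endothelial score it was at 1.45. Trp53inp1 (-0.89), Plk2 (-0.62) and Sesn1 (-0.34) were lower, and Ccng1, Phlda3 and Btg2 did not pass. Trp53inp1 lost its call with the endothelial score (adjusted p = 0.127), and Plk2 with total counts (-0.35, adjusted p = 0.176) and without the 4 libraries of high Scx (adjusted p = 0.0684). Sesn1 lost it with total counts (-0.03), with the endothelial score (adjusted p = 0.332) and against a 1.2-fold change (adjusted p = 0.152). Eda2r lost its call with the muscle score (0.62, adjusted p = 0.158) and without the 4 muscle-rich libraries (0.36, adjusted p = 0.160), and it was at -0.28 with the endothelial score.

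Among 14 genes of the turnover of D cyclins and inhibitors, 3 were higher, 2 were lower and 9 did not pass, with a median of 0.02, the same as for all tested genes, of which 25.6% were higher and 22.7% lower. With total counts 9 were higher and none was lower. Skp2, which targets p27, rose by 0.50 (adjusted p = 0.00384, edgeR). Cks2 (1.40) and Dtl, which directs p21 and Cdt1 to degradation in S phase (2.12), also rose, and both had fewer than 8 wild type libraries at the filter's cutoff. Cul1 (-0.38) and Skp1 (-0.32), the scaffold and adaptor of the Skp2 ligase, were lower on the TMM scale and did not pass with total counts (-0.07 and -0.03), with the endothelial score or against a 1.2-fold change. The substrate receptors of D cyclins Fbxo4, Fbxo31 and Ambra1 did not pass (-0.03, -0.17 and 0.03).

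Of 25 transcription regulators of these genes, 23 were tested, 7 were higher and 4 were lower, with a median of 0.11. That is 47.8% past the threshold, near the 48.3% of all tested genes. With total counts 14 were higher and 1 lower, and with the endothelial score 4 were higher and 1 lower. Id2, an inhibitor of basic helix-loop-helix factors, rose by 2.53, from 22.9 to 132 CPM (adjusted p = 4.77e-09, edgeR). Mxi1, an antagonist of MYC and a known HIF target, rose by 0.89, the AP-1 member Fosl1 by 0.87 and Myc by 0.78 (adjusted p = 9.92e-05). Fosl1 had fewer than 8 wild type libraries at the cutoff. Of its 2033 exon bases, 1163 overlap Ccdc85b on the other strand, so its counts are uncertain without strand. Of the other genes named from the lists, Cdk4, Cdk2, Ccne2, Ccnh, Rb1, Rbl2, Mxi1 and Ctnnb1 also share exon bases with measured genes on the other strand. With the endothelial score Fosl1 (0.76, adjusted p = 0.105) and Myc (0.36, adjusted p = 0.203) lost their calls. Foxo1, an activator of Cdkn1b in many cells, fell by 0.62 (adjusted p = 7.88e-04). Foxo4 (-0.27) and Ctnnb1 (-0.19) were lower on the TMM scale and at 0.04 and 0.11 with total counts, without passing there. Both also lost their calls with the muscle score, with the endothelial score and against a 1.2-fold change, Foxo4 in 7 of the 16 fits with 1 library left out, and Ctnnb1 in 1 of them and without the 4 muscle-rich libraries. Of 12 Polycomb genes that repress the Cdkn2a and Cdkn2b locus, 2 were higher (Bmi1 at 0.40 and Suz12 at 0.38) and 4 lower, among them Ezh2 (-0.40) and Ring1 (-0.29), a share near the 48.3% of all tested genes. With total counts 5 were higher and none was lower, and against a 1.2-fold change none passed in either direction. The lower calls were also all lost with the endothelial score.

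**Figure D5:**
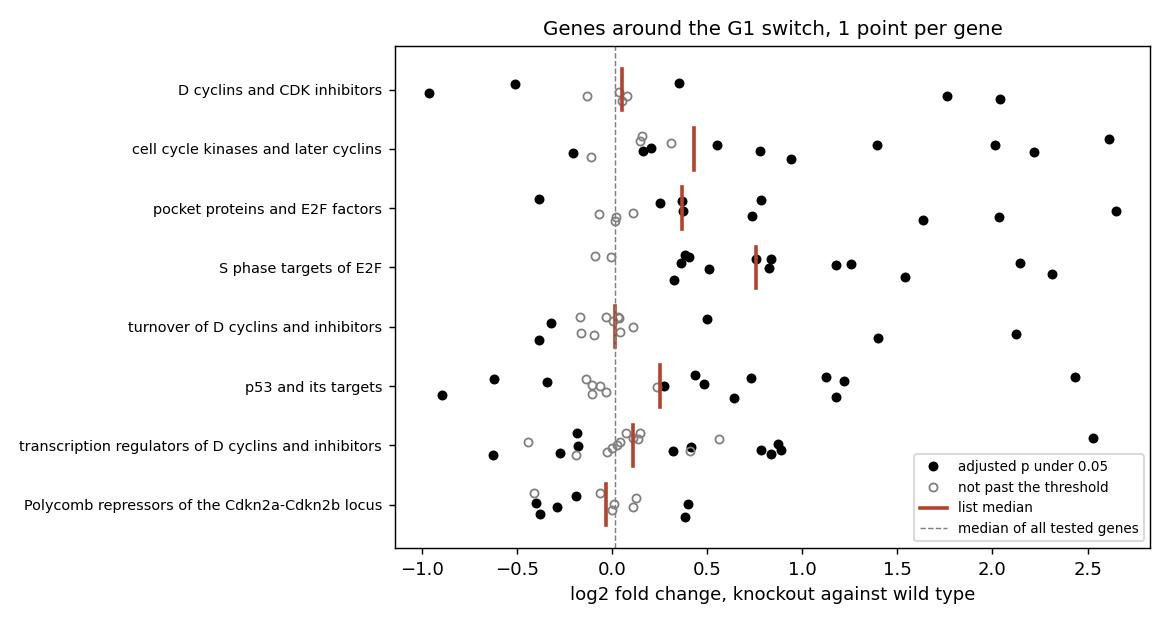
Log2 fold change, knockout against wild type, of each tested gene of the D cyclin and inhibitor group and of 7 related lists, 1 point per gene, filled where the adjusted p was under 0.05, with list medians in red and the median of all tested genes (0.02) dashed. The list of S phase genes has the highest median (0.76), and the 3 D cyclins lie near 0.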

How the data were processed

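The authors deposited 1 table of whole-number counts per gene for each library, with Ensembl identifiers. Per the submitters' processing notes, kallisto, featureCounts and the build GRCm39 were used. Their roles, the annotation and the use of strand are not given in the sources used here. Of 25719 identifiers, 25614 matched a symbol. Libraries were grouped by genotype from their titles. No 2 libraries repeated each other, with a chi-square of at least 6.56 per degree of freedom between libraries of a group.

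Counts were fitted with the quasi-likelihood test of edgeR 4.0.16 in R 4.3.3 (robust dispersions, TMM, default expression filter, genotype as the only term, two-sided, Benjamini-Hochberg adjustment over 14803 tested genes, threshold 0.05), after a check on simulated data. Intervals used the standard error with 14 degrees of freedom. Log2 CPM used a prior count of 2. Intervals and floors cover counting and replicate error as stated, not biases of mapping. Members of the gene group and all lists were chosen with earlier results of these data known. From each list the genes past the threshold with the largest change in each direction, up to 3, were named, plus 12 fixed genes; others were named after their values were seen. Some genes of the lists are not reported here by name. Skp1 was matched as Skp1a. Alternatives were other scalings and filters, DESeq2 1.42.0, limma-voom (limma 3.58.1), a replicate block, marker and Y-linked covariates, and subsets of libraries. The fit without 4 muscle-rich libraries and the test against a 1.2-fold change were chosen after seeing the data.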

Additional observations from a re-analysis of the deposited data

Results flagged for a closer look

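Cdkn1c in knockout library 1 lay at 4.27 log2 CPM, where the next lowest knockout library was at 4.745, a gap of 0.537 of the group's range. It was the 1 library set apart in this way in 18 checks of 8 libraries each, and chance sets apart about 1 in 20.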

How the results depend on the processing

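Cdkn1a, Cdkn2b and Cdkn2c kept their direction and their call under all 29 alternatives. With total counts 8270 genes were higher and 1415 lower (85.4% of calls higher, and 3792 against 3359 on the TMM scale), 6 members were higher and 1 lower, Ccnd1 was at 0.14, Ccnh at 0.094, Foxo4 at 0.036, Ctnnb1 at 0.11 and Ring1 at 0.017, on a scale where the median of all genes was 0.32. With the endothelial score as a covariate 4332 genes passed (2350 higher, 1982 lower) against 7151, 1 member was lower, Ccnd1 was at 0.089 and Eda2r at -0.28. Against a 1.2-fold change 4236 genes passed (2311 higher, 1925 lower) and 3 members (1 lower). With limma-voom, without the 4 libraries of high Scx and without the 4 muscle-rich libraries 1 member was lower in place of 2, since Cdkn1c lost its call. The cause was not tested. Cdkn2d was at -0.0016 with limma-voom and at -0.016 without the libraries of high Scx, where Ccnd3 was at -3.81e-04. Ccnd1 was at 0.0070 without the muscle-rich libraries. With each library left out in turn, Cdkn2d lay between -0.019 and 0.095, 5 members were called every time, and 6790 to 7151 genes passed. With the replicate number as a block 7010 genes and 5 members passed, and Cdk4 had an adjusted p of 0.0609. The numbers do not pair the samples (correlations of same-numbered deviations from -0.397 to 0.394, over 0.1 in 3 of 8 pairs, and 1 knockout library correlated best with its own number). Depth limits Cdkn2a and Cdkn2b.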
